A study of Mus musculus with 36 samples.

Results

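The 10 genes described here encode the core of classical non-homologous end joining and the factors that sense double-strand breaks and steer them to it. They are Xrcc5, Xrcc6, Prkdc, Dclre1c, Xrcc4, Lig4, Nhej1, Atm, Trp53bp1 and Rif1, taken by gene symbol from the 54842 genes of the count table. All 10 were matched to their Ensembl identifiers, and all 10 passed the filter on low counts that left 28536 genes for testing. RNA was measured in mouse embryonic fibroblasts (MEF) that carried a doxycycline-inducible, catalytically dead Cas9 together with a guide RNA against major satellite repeats (MSR), the tandem repeats of pericentric heterochromatin. In the MSR-dCas9-Control line (Control) dCas9 carried no effector, and in the MSR-dCas9-Activator line (Activator) it carried the transcriptional activator VPR. Each line was sampled uninduced, at the end of induction with 10 ng/ml doxycycline, and at 3, 6, 12 and 24 h of post-induction culture without it, with 3 libraries in each of the 12 groups and 36 libraries in all. The comparison asks how the RNA of these genes differed when satellite transcription was forced in heterochromatin, and how it changed after the inducer was withdrawn. Both lines were mixed cultures made by PiggyBac transposition and kept under hygromycin, not single clones. Doxycycline was given for 24 h to the Control line and for 6 h to the Activator line, so that the effector and the length of induction cannot be told apart after induction.

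In classical end joining, the Ku heterodimer binds the broken DNA end and recruits the kinase DNA-PKcs, and the nuclease Artemis opens or trims ends that cannot be joined directly. DNA ligase IV, held by its partner XRCC4 and helped by XLF, then seals the ends. In parallel the kinase ATM phosphorylates histone H2AX around the break, and 53BP1 with its effector RIF1 shields the ends from resection, which favours end joining over homologous recombination. Heterochromatin is known as a setting where breaks depend on ATM and 53BP1 for their repair.

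Libraries held from 27376846 to 57371803 counts in genes (median 42865961). Counts of the MSR family GSAT_MM lay between 90217 and 1232145 in the Activator libraries at the end of induction and between 904 and 1720 in the Control libraries at that time. They already differed before induction, with 2232 to 4751 in the Activator and 1091 to 2142 in the Control libraries. Mitochondrially encoded RNA took 2.27 to 2.82% of gene counts in the induced Activator libraries and 1.74 to 2.56% in the induced Control libraries, and repeat families took 26.5 to 30.6% of all counts in the Activator libraries at 12 h and 20.8 to 22.4% in the Control libraries. Of 10 fibroblast markers 8 had mean normalised counts of at least 100, and Thy1 and Postn were low. The summed level of the fibroblast markers was 635181 to 765952 in the Activator libraries at 12 h and 949766 to 1001818 in the Control libraries. At the same time the summed level of 5 endothelial markers was 1557 to 1841 against 25.9 to 34.5. As means over all 36 libraries, Pecam1 and Tek were the highest of these, and Cdh5, Kdr and Emcn were under 10. The sums at 12 h were 333 to 460 against 12.0 to 30.2 for 5 neural markers, 115 to 151 against 22.4 to 30.0 for 6 epithelial markers and 858 to 986 against 569 to 582 for 5 blood markers. They were 116 to 149 against 27.6 to 54.8 for 5 muscle markers and 51.8 to 106 against 14.0 to 25.0 for 4 pluripotency markers. The markers with a mean over all libraries under 10 numbered 3 neural, 4 epithelial, 2 blood, 4 muscle and 2 pluripotency genes. The part of these differences in the results was not tested. In bulk RNA, fewer cells that express a gene and less of its RNA in each cell cannot be told apart.

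In the uninduced Control libraries the 10 genes spanned a wide range of levels per kilobase of exon. Rif1 was highest with 974 ± 20.9 normalised counts per kb (SD, n = 3), followed by Xrcc5 with 755 ± 102, Xrcc6 with 605 ± 6.43, Atm with 442 ± 5.14 and Trp53bp1 with 358 ± 26.3. Prkdc had 161 ± 7.77 per kb, Lig4 123 ± 2.09, Dclre1c 100.2 ± 4.74, Nhej1 82.8 ± 15.4 and Xrcc4 36.7 ± 3.25. Neighbours in this order had separate library values with the exception of Dclre1c and Nhej1, which overlapped. In the Activator libraries at 12 h the order was different. Xrcc5 stood first with 1044 ± 148 per kb, followed by Xrcc6 with 448 ± 72.5 and Rif1 with 364 ± 65.8, with the Xrcc6 and Rif1 libraries overlapping. Prkdc with 81.2 ± 4.40 per kb had moved below Dclre1c with 111 ± 13.8 and Lig4 with 98.9 ± 7.67.

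Before induction the lines did not differ in any of the 10 genes by edgeR's quasi-likelihood test at an adjusted p-value of 0.05, against 1.23% of all genes tested. The 3 genes with an unadjusted p under 0.05 were Rif1 with a log2 fold change of −0.30 ± 0.11 (SE, n = 3 per group, adjusted p = 0.229), Trp53bp1 with −0.18 ± 0.08 (adjusted p = 0.419) and Atm with −0.19 ± 0.08 (adjusted p = 0.395), Activator over Control. The 3 genes whose Activator libraries all lay below the Control libraries before induction, a pattern seen for 7.93% of all genes, were Rif1, Atm and Dclre1c, while the Trp53bp1 libraries overlapped.

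At the end of induction 6 of the 10 genes differed between the lines, 2 higher and 4 lower in the Activator line, where 57.3% of all genes tested differed (31.7% higher and 25.5% lower). After 3 h without doxycycline 2 were higher and 7 lower (9 in all), where 70.9% of all genes differed, 39.6% higher and 31.4% lower. At both 6 h and 12 h 2 were higher and 6 lower (8 in all), beside 74.1% of all genes at 6 h, made up of 40.8% higher and 33.3% lower. The corresponding share at 12 h was 75.2%, of which 41.1% were higher and 34.1% lower, as percent of all genes. At 24 h 0 were higher and 5 lower, beside 63.9% of all genes (34.5% higher, 29.4% lower). In a fit additive in time point and line, 9 of the 10 differed between the lines, beside 82.1% of all genes. The share of members that differed was therefore near that of all genes and is no result about the members. With the limits of the study for a changed gene (mean count above 100 and a fold change above 2), 0 members passed at the end of induction, where 5.71% of all genes passed as lower. After 3 h 1 member passed as lower (9.45% of all genes), after 6 h 3 members (10.3%), after 12 h 4 members (10.9%) and after 24 h again 4 (4.12%), and 0 passed as higher. The median log2 fold change of the 10 genes was −0.24, −0.40, −0.38, −0.36 and −0.43 from the end of induction to 24 h, beside a median of all genes tested of 0.10, 0.16, 0.13, 0.12 and 0.01.

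**Figure D1:**
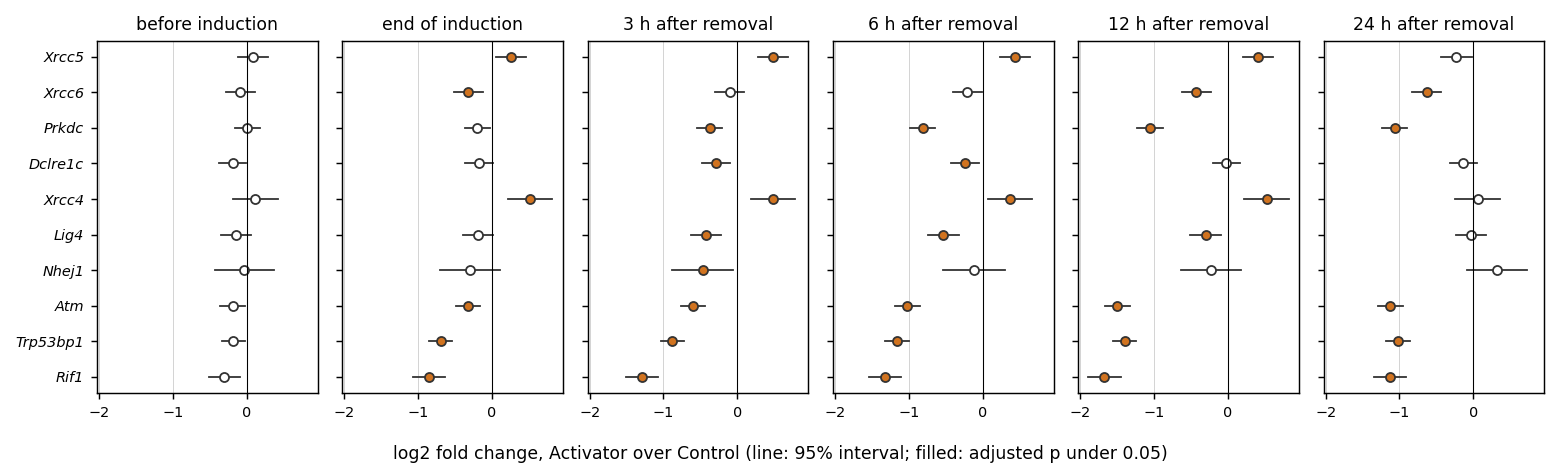
Log2 fold change, Activator over Control (x axis), by gene (y axis), with a panel for each of the 6 time points. Lines are 95% intervals and filled points have an adjusted p-value under 0.05. Prkdc, Atm, Trp53bp1 and Rif1 are farthest to the left at 12 h, with −1.06, −1.50, −1.40 and −1.67, and Xrcc4 and Xrcc5 lie to the right of 0 from the end of induction to 12 h (to the left of 0 when scaled to mitochondrial mRNAs, save Xrcc4 at the end of induction).

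The normalisation bears on these directions. TMM scaling, used throughout, sets most genes near no change, and scaling to the 13 mitochondrially encoded mRNAs instead shifted the all-gene median by −0.35 on the log2 scale at the end of induction, then by −0.60, −0.71, −0.61 and −0.19 in the order of the 4 later times. The share of called genes that were higher went from 55.4 to 36.7% at the end of induction and from 55.0 to 31.6% at 6 h, where it moved most. The lower levels of Prkdc, Atm, Trp53bp1 and Rif1 at 12 and 24 h passed the test under each of the scalings tried. Mitochondrial scaling moved values down, so it could not have turned these lower levels. The higher levels of Xrcc4 and Xrcc5 did not keep their sign under it, save Xrcc4 at the end of induction.

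ATM, 53BP1 and RIF1, which signal the break and protect its ends, showed the largest differences of the 10 at 12 h. Rif1 (ENSMUSG00000036202, chr2:52072832-52122383 on the plus strand of GRCm38) had 12223, 12659 and 11671 normalised counts in the Control libraries at 12 h and 3445, 4625 and 3410 in the Activator libraries. The Activator libraries were all below the lowest Control library, with replicate 2 nearest to it. Rif1 was lower by a log2 fold change of −0.85 ± 0.11 at the end of induction (adjusted p = 1.74e-07, edgeR). The value was −1.30 ± 0.11 after 3 h, −1.32 ± 0.11 after 6 h and −1.67 ± 0.11 after 12 h (adjusted p = 1.7e-13), when Rif1 stood at 31.3% of Control. At 24 h the Activator libraries held 4462, 5910 and 4987 and the Control libraries 11017, 10986 and 11446, a log2 fold change of −1.13 ± 0.11 (adjusted p = 1.03e-09).

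Trp53bp1, the gene of 53BP1 (ENSMUSG00000043909, chr2:121193281-121271407 on the minus strand), had 5564, 5513 and 5415 normalised counts in the Control libraries and 1985, 2399 and 1883 in the Activator libraries at 12 h. The groups were far apart and the spread within each was small. Its log2 fold change was −0.70 ± 0.08 at the end of induction (adjusted p = 3.44e-08, edgeR), −0.88 ± 0.08 after 3 h and −1.16 ± 0.08 after 6 h. It reached −1.40 ± 0.08 at 12 h (37.8% of Control, adjusted p = 1.73e-14) and was −1.02 ± 0.08 at 24 h. At the last time the Activator libraries held 2407, 3380 and 2582 against 5712, 5708 and 5507. Of its 14164 exon bases 2130 overlap exons of Tubgcp4 on the other strand, and since the strand setting of the counting is not stated, reads of these genes cannot be told apart there.

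Atm, the gene of the kinase (ENSMUSG00000034218, chr9:53439149-53536740 on the minus strand), differed less at first. It had 3833, 3825 and 3565 normalised counts in the Activator libraries and 4765, 4706 and 4524 in the Control libraries at the end of induction, a log2 fold change of −0.32 ± 0.08 (adjusted p = 0.00178, edgeR). At 12 h the values were 1818, 1949 and 1700 against 5093, 5119 and 5229. All Activator libraries were then well below the Control libraries, with a log2 fold change of −1.50 ± 0.09 (35.4% of Control, adjusted p = 1.02e-14). At 24 h they held 2049, 2744 and 2032 against 4957, 4740 and 5120, a log2 fold change of −1.12 ± 0.08 (adjusted p = 7.94e-12).

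**Figure D2:**
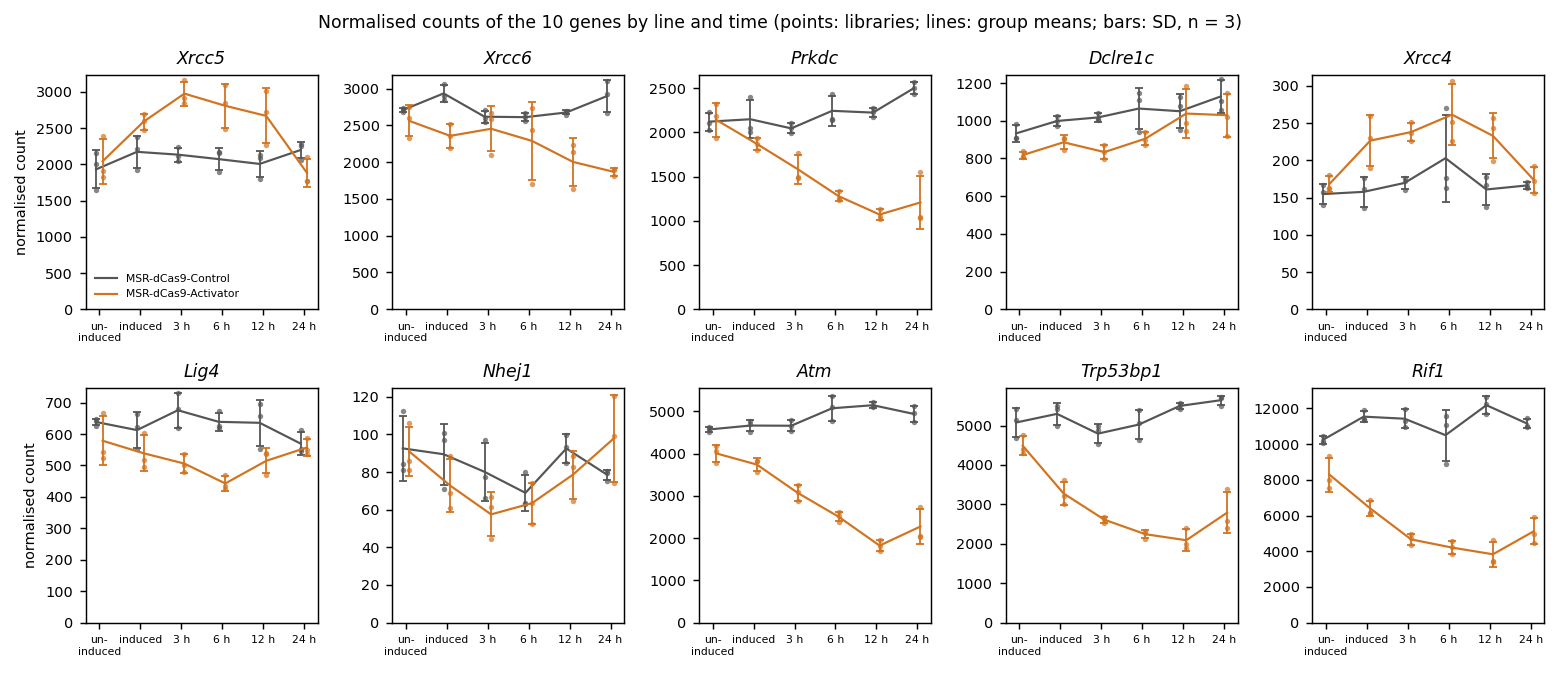
Normalised counts (y axis, from 0) of the 10 genes by time (x axis, ordered and not to scale) in the Control and Activator lines; points are libraries, lines join group means and bars are SD (n = 3). In the Activator line the means of Atm, Trp53bp1, Rif1 and Prkdc descend up to 12 h and lie higher at 24 h than at 12 h, with Rif1 between 3410 and 4625 at 12 h against 11671 or more in Control.

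Rif1 and Trp53bp1 were close to each other in time course. Over the 12 group means of log2 values their Pearson r was 0.99, and that of Prkdc and Atm was 0.98, given as a description because the groups share the induction and the libraries share both genes. Within each library, the ratio of Rif1 to Trp53bp1 counts per kb does not depend on scaling. It was 3.22 ± 0.308 in the Control libraries and 2.41 ± 0.112 in the Activator libraries at 3 h, and 2.99 ± 0.0980 against 2.46 ± 0.131 at 12 h, with no overlap at these times. The exact two-sided permutation test gave p = 0.1 for each, the smallest it allows for 3 against 3 libraries. Here and for the ratios below, the test took no account of the replicate number, which the edgeR fits included. At the other 4 times the ratios overlapped (exact permutation p from 0.2 to 0.4).

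Upstream sequence is shown for Trp53bp1 and Atm, which were lower, and for Xrcc5, which was higher on the TMM scale and not when scaled to mitochondrial mRNAs, because these genes moved apart within 1 pathway. The bases upstream of the RefSeq start that lie outside any annotated exon are given 5′ to 3′ on the strand of the gene (GRCm38.p6; RefSeq), with capitals for matches to a CCAAT box (CCAAT) or a GC box (GGGCGG) on either strand. The stretches are chr2:121271408-121271657 (minus) for Trp53bp1, chr9:53536741-53536921 (minus) for Atm and chr1:72307171-72307420 (plus) for Xrcc5.
Trp53bp1: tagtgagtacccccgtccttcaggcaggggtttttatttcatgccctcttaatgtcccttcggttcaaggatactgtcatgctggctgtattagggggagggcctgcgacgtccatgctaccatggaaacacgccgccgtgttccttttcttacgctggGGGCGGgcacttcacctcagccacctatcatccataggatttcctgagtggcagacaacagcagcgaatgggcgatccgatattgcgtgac
Atm: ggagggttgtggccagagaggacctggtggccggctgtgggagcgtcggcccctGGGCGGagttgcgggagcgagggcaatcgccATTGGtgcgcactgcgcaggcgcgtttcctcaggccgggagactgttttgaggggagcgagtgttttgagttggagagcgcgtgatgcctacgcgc
Xrcc5: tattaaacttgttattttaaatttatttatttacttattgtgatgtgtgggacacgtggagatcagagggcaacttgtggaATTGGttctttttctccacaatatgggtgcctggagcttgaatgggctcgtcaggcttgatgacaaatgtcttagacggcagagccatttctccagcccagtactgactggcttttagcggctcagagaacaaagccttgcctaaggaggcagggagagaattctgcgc
The GC box of Trp53bp1 lies 91 bases before its start, Atm holds a CCAAT box at 165 and a GC box at 196 bases, and Xrcc5 a CCAAT box at 169 bases. These distances are counted from the RefSeq start. For Atm the stretch shown has 181 bases and ends 69 bases before that start. Of the 10 members 8 were in the RefSeq promoter table, and Prkdc and Rif1 were not. Over the 250 bases upstream, 6 of the 8 held a GC box and 3 a CCAAT box, beside 32.7% and 33.8% of all 32851 promoters. An ETS motif (CCGGAAGT) and the palindromic NRF1 motif were found in Lig4 and an E2F motif (TTTGGCGC, TTTCCCGC, TTTGCCGC or TTTCGCGC) in Xrcc6, with 2.88%, 0.782% and 1.86% of all promoters. A CRE (TGACGTCA; 1.55%) and a CHR (TTTGAA; 16.0%) were in 0 of the 8. Motifs were sought on both strands, and a match describes these letters and no binding.

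The subunits that bind the DNA end did not move together. Xrcc5, the gene of Ku80 (ENSMUSG00000026187, chr1:72307421-72394952 on the plus strand), had 2094, 2129 and 1793 normalised counts in the Control libraries and 3016, 2264 and 2726 in the Activator libraries at 12 h. The groups did not overlap, and the lowest Activator library, replicate 2, lay just above the highest Control library. The log2 fold change was 0.26 ± 0.10 at the end of induction (adjusted p = 0.0369, edgeR), 0.48 ± 0.10 after 3 h, 0.44 ± 0.11 after 6 h and 0.41 ± 0.11 after 12 h (adjusted p = 0.000855), and with mitochondrial scaling it was −0.11, −0.12, −0.28 and −0.22. The call at the end of induction was lost without Control replicate 2 (0.27, adjusted p = 0.0594), Control replicate 3 (0.23, 0.101), Activator replicate 2 (0.26, 0.0637) or Activator replicate 3 (0.23, 0.109). At 24 h the Activator libraries held 2097, 1775 and 1765 against 2274, 2254 and 2063, a log2 fold change of −0.23 ± 0.11 that did not pass (adjusted p = 0.0592).

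Xrcc6, the gene of Ku70 (ENSMUSG00000022471, chr15:81987835-82040085 on the plus strand), went the other way. It had 2684, 2696 and 2644 normalised counts in the Control libraries and 2237, 1632 and 2140 in the Activator libraries at 12 h, and 3102, 2925 and 2669 against 1901, 1892 and 1809 at 24 h. All Activator libraries were below all Control libraries at both times. The log2 fold change was −0.32 ± 0.10 at the end of induction (adjusted p = 0.00794, edgeR), −0.43 ± 0.10 at 12 h (adjusted p = 0.000391) and −0.63 ± 0.10 at 24 h (adjusted p = 4.16e-06). It did not pass at 3 h (−0.10 ± 0.10, adjusted p = 0.385) or 6 h (−0.20 ± 0.10, adjusted p = 0.0667; past the test with library sizes alone, −0.36, or mitochondrial scaling, −0.93, and without replicate 1 of Control, −0.27, or of Activator, −0.26), and with DESeq2 size factors it also did not pass at the end of induction (−0.24) or 12 h (−0.22). Its exons overlap those of Desi1 on the other strand over 344 bases.

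The ratio of Xrcc5 to Xrcc6 counts per kb, taken within each library and so free of any scaling, separated the lines at 5 of 6 times. Before induction it was 1.25 ± 0.168 in the Control and 1.41 ± 0.332 in the Activator libraries, with overlap (exact two-sided permutation p = 0.6). It was 1.30 ± 0.0953 against 1.93 ± 0.213 at the end of induction, 1.43 ± 0.0395 against 2.14 ± 0.232 after 3 h and 1.39 ± 0.124 against 2.20 ± 0.317 after 6 h. The ratio was 1.31 ± 0.109 against 2.34 ± 0.100 at 12 h and 1.33 ± 0.0390 against 1.76 ± 0.151 at 24 h. At each of these 5 times every Activator library was above every Control library (exact permutation p = 0.1, the smallest possible with 3 against 3). Relative to its Ku70 partner, Ku80 RNA was thus 1.78 times as abundant in the Activator line as in the Control line at 12 h and 1.32 times at 24 h.

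Prkdc, the gene of the kinase DNA-PKcs that Ku recruits (ENSMUSG00000022672, chr16:15637866-15842235 on the plus strand), had 2003, 2398 and 2046 normalised counts in the Control libraries and 1867, 1940 and 1805 in the Activator libraries at the end of induction. The log2 fold change of −0.20 ± 0.09 did not pass (adjusted p = 0.0536, edgeR) and passed without Activator replicate 1 (−0.22, adjusted p = 0.0499). At 12 h the Control libraries held 2226, 2272 and 2175 and the Activator libraries 1022, 1135 and 1057, less than any library of the Control line. The log2 fold change was −0.37 ± 0.09 after 3 h (adjusted p = 0.00039), −0.81 ± 0.09 after 6 h, −1.06 ± 0.09 after 12 h (48.1% of Control, adjusted p = 1.61e-11) and −1.07 ± 0.09 after 24 h (adjusted p = 4.32e-11). At 24 h the Activator libraries held 1042, 1554 and 1029 against 2572, 2430 and 2501, with replicate 2 higher than the other two. The same replicate was the highest Activator library at 24 h for Atm, Trp53bp1 and Rif1. Without it the log2 fold changes at 24 h were −1.24 for Prkdc, −1.28 for Atm, −1.15 for Trp53bp1 and −1.24 for Rif1, and all 4 genes passed at 12 and 24 h without any single library.

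Dclre1c, the gene of the nuclease Artemis (ENSMUSG00000026648, chr2:3424131-3464130 on the plus strand), changed little. It had 1076, 1125 and 951 normalised counts in the Control libraries and 986, 944 and 1185 in the Activator libraries at 12 h, with full overlap. The log2 fold change was −0.02 ± 0.09 with a 95% interval from −0.21 to 0.17. It passed at 3 h (−0.29 ± 0.10, adjusted p = 0.00879, edgeR) and 6 h (−0.24 ± 0.10, adjusted p = 0.0267). The first call was lost without Activator replicate 3 (−0.22, adjusted p = 0.0854) and the second without Control replicate 2 or 3 or any Activator replicate (from −0.21 to −0.15). With DESeq2 size factors both were lost. Its exons overlap those of Suv39h2 on the other strand over 357 bases.

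The genes of the ligation complex were, with Dclre1c, the least abundant of the 10 per kb of exon in the uninduced Control libraries. Lig4, the gene of DNA ligase IV (ENSMUSG00000049717, chr8:9969049-9977686 on the minus strand), had 618, 672 and 626 normalised counts in the Control libraries and 435, 468 and 425 in the Activator libraries at 6 h, without overlap. Its log2 fold change was −0.42 ± 0.10 at 3 h (adjusted p = 0.000759, edgeR), −0.53 ± 0.10 at 6 h (69.3% of Control, adjusted p = 5.53e-05) and −0.30 ± 0.10 at 12 h (adjusted p = 0.0104). By 24 h it was −0.03 ± 0.10, with a 95% interval from −0.24 to 0.17. The call at 12 h was lost without Control replicate 2 (−0.25, adjusted p = 0.0586) or any 1 of the 3 Activator replicates (−0.22, −0.25 and −0.16), and with DESeq2 size factors (−0.09).

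Xrcc4, the gene of the partner that stabilises the ligase (ENSMUSG00000021615, chr13:89774027-90089608 on the minus strand), had 178, 167 and 138 normalised counts in the Control libraries and 256, 199 and 244 in the Activator libraries at 12 h. All Activator libraries were above all Control libraries. Its log2 fold change was 0.51 ± 0.15 at the end of induction (adjusted p = 0.00551, edgeR), 0.49 ± 0.15 after 3 h, 0.38 ± 0.15 after 6 h, 0.53 ± 0.15 after 12 h (adjusted p = 0.00303) and 0.06 ± 0.16 after 24 h (adjusted p = 0.752), and with mitochondrial scaling 0.15, −0.11, −0.36, −0.09 and −0.12. The call at the end of induction was lost without Control replicate 1 (0.36, adjusted p = 0.0782), and that at 6 h without Control replicate 2 (0.31), Control replicate 3 (0.30) or Activator replicate 1 (0.35). Its exons overlap those of Tmem167 on the other strand over 112 bases.

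Nhej1, the gene of XLF (ENSMUSG00000026162, chr1:74967139-75125200 on the minus strand), had between 44.3 and 120 normalised counts in all libraries and the widest errors. It passed at 3 h with a log2 fold change of −0.47 ± 0.21 (adjusted p = 0.04996, edgeR) on overlapping libraries, 66.7, 61.5 and 44.3 against 77.2, 96.9 and 66.2. That call was lost without Control replicate 1 or 2 or any Activator replicate (from −0.55 to −0.30). At 12 h the value was −0.23 ± 0.21 with a 95% interval from −0.64 to 0.18, and at 24 h 0.32 ± 0.21 (adjusted p = 0.174), which passed without Activator replicate 2 (0.49, adjusted p = 0.044). With DESeq2 size factors it did not pass at 3 h (−0.33) and passed at 24 h (0.48).

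The ratio of Lig4 to Xrcc4 counts per kb within each library was lower in every Activator library than in every Control library at the first 5 times. It was 3.36 ± 0.347 in the Control and 2.78 ± 0.195 in the Activator libraries already before induction, 3.18 ± 0.482 against 1.98 ± 0.519 at the end of induction, 3.22 ± 0.189 against 1.73 ± 0.168 after 3 h, 2.69 ± 0.719 against 1.40 ± 0.266 after 6 h and 3.21 ± 0.196 against 1.82 ± 0.336 after 12 h (exact two-sided permutation p = 0.1 each, the smallest possible). At 24 h it was 2.78 ± 0.250 against 2.62 ± 0.265, with overlap (exact permutation p = 0.6). The 3 ratios were chosen after the data were seen, and 18 ratio comparisons were made, none of which could pass a correction at this size.

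**Figure D3:**
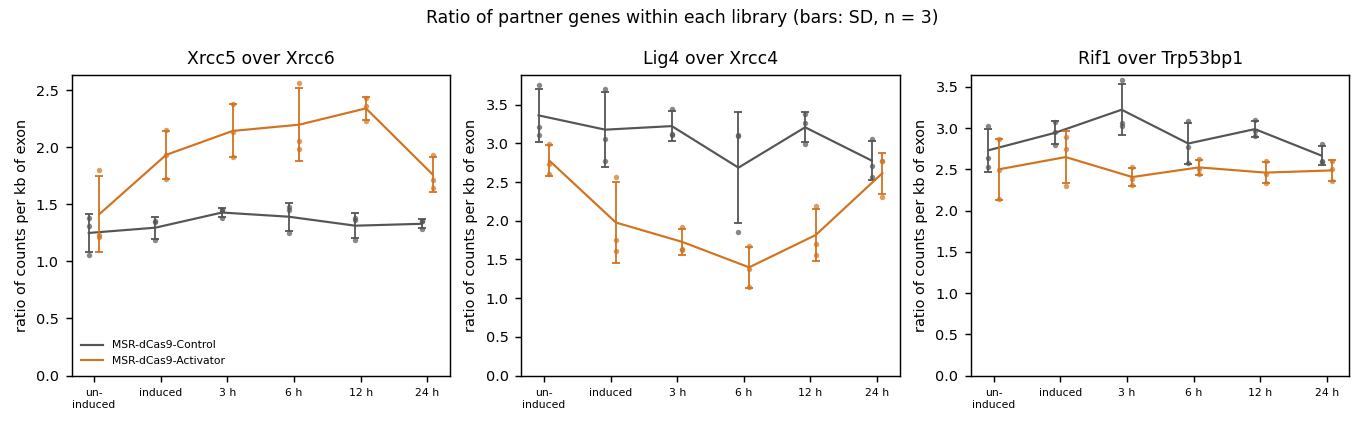
Ratio of counts per kb of exon (y axis, from 0) of Xrcc5 over Xrcc6, Lig4 over Xrcc4 and Rif1 over Trp53bp1 in each library by time (x axis, ordered and not to scale); points are libraries, lines join group means and bars are SD (n = 3). The Ku ratio of the Activator line climbs from 1.41 to 2.34 at 12 h and is 1.76 at 24 h, and the ratio of Lig4 to Xrcc4 drops to 1.40 at 6 h and is 2.62 at 24 h.

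The line difference at each time was then set against the difference before induction. At the end of induction the line difference had moved for 2 members. The change was −0.52 ± 0.11 for Trp53bp1 and −0.55 ± 0.15 for Rif1 on the log2 scale. The line difference had moved for 32.2% of all genes, up for 4127 and down for 5050. At 12 h it had moved for 5 members (51% of all genes, 6556 up and 7999 down), namely Rif1 (−1.37 ± 0.15), Atm (−1.31 ± 0.12), Trp53bp1 (−1.22 ± 0.11), Prkdc (−1.07 ± 0.12) and Xrcc6 (−0.34 ± 0.14). At 24 h the same 5 passed (33.1% of all genes), with −0.82 ± 0.15, −0.93 ± 0.12, −0.85 ± 0.11, −1.08 ± 0.12 and −0.55 ± 0.14. The values for Xrcc5 at 12 h (0.33 ± 0.15, adjusted p = 0.0661, edgeR) and Xrcc4 (0.41 ± 0.22, adjusted p = 0.121) did not pass, though both did with DESeq2 size factors (0.54 and 0.62) and without Activator replicate 2 at 12 h (0.51 and 0.55), and they were −0.34 and −0.24 when scaled to mitochondrial mRNAs. Xrcc5 also passed without uninduced Control replicate 3 (0.49) or uninduced Activator replicate 2 (0.46), and at 24 h without uninduced Activator replicate 1 (−0.40, adjusted p = 0.0488). The call of Xrcc6 at 12 h was lost without any 1 of 9 libraries, all but Control replicate 2 and Activator replicate 2 before induction and Control replicate 1 at 12 h (from −0.34 to −0.18, adjusted p from 0.0731 to 0.296), without the replicate block (−0.34, adjusted p = 0.105), without the filter on low counts (−0.32, adjusted p = 0.092) and with DESeq2 size factors (−0.13). These comparisons share the libraries taken before induction.

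Between the end of induction and 12 h, a contrast added after the data were seen, the line difference moved down for 4 members. It moved for 19.2% of all genes, up for 2120 and down for 3356. The changes of the members were −1.18 ± 0.12 for Atm, −0.86 ± 0.12 for Prkdc, −0.82 ± 0.15 for Rif1 and −0.71 ± 0.11 for Trp53bp1 on the log2 scale (adjusted p from 5.3e-08 to 0.00026, edgeR). These 4 members were thus farther from Control 12 h after the inducer had been removed than when it was taken away. Satellite RNA remained high after removal. GSAT_MM counts were 330862 to 1376081 in the Activator libraries at 12 h and 474189 to 1419830 at 24 h. Between 12 and 24 h the difference changed for 4 members (15.1% of all genes). It became smaller for Rif1 (0.55 ± 0.15, adjusted p = 0.0155), Trp53bp1 (0.38 ± 0.11, 0.0244) and Atm (0.38 ± 0.12, 0.0294), and it moved down for Xrcc5 (−0.64 ± 0.15, 0.00416). Without Activator replicate 2 at 24 h, the values of Rif1 (0.44, adjusted p = 0.0567), Trp53bp1 (0.26, 0.108) and Atm (0.22, 0.144) no longer passed. Those calls were also lost without Activator replicate 1 (Rif1 and Trp53bp1) or 3 (Rif1, Trp53bp1 and Atm) at 12 h, Control replicate 1 (Trp53bp1 and Atm) or 3 (Atm) at 12 h and Control replicate 1 (Atm) or 2 (Trp53bp1 and Atm) at 24 h, with values from 0.33 to 0.49. Without the replicate block Trp53bp1 did not pass (adjusted p = 0.0919), and with mitochondrial scaling Xrcc5 was −0.19 and did not pass. For Prkdc the difference between these times was −0.01 ± 0.12 with a 95% interval from −0.25 to 0.23.

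Within the Activator line, 4 members differed between induced and uninduced libraries (60.8% of all genes). The log2 fold change was −0.46 ± 0.08 for Trp53bp1 and −0.38 ± 0.11 for Rif1, and it was 0.43 ± 0.15 for Xrcc4 and 0.34 ± 0.10 for Xrcc5, which were −0.14 and −0.24 when scaled to mitochondrial mRNAs. Without uninduced Activator replicate 1, Rif1 (−0.26, adjusted p = 0.0604, edgeR) and Xrcc5 (0.26, 0.0589) no longer passed, nor did Xrcc4 without uninduced replicate 3 (0.41, 0.0546) or induced replicate 1 (0.37, 0.0757) of that line, or with library sizes alone (0.33, 0.0611). Prkdc passed without replicate 1 of the uninduced (−0.24) or the induced (−0.23) Activator libraries. At 24 h 6 members differed from the uninduced libraries (62.8% of all genes): Prkdc (−0.84 ± 0.09), Atm (−0.82 ± 0.08), Rif1 (−0.70 ± 0.11), Trp53bp1 (−0.69 ± 0.08) and Xrcc6 (−0.45 ± 0.10) were lower and Dclre1c (0.33 ± 0.10; 0.14 and not past the test with mitochondrial scaling) was higher. In the Control line, doxycycline for 24 h left 0 members past the threshold of edgeR (0.214% of all genes) and 0 with an unadjusted p under 0.05. At 24 h after its removal 0 passed (0.788% of all genes), and the 2 with an unadjusted p under 0.05 were Dclre1c (0.28 ± 0.10, adjusted p = 0.198) and Prkdc (0.24 ± 0.09, adjusted p = 0.222).

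Some of these genes share a start region with a gene on the other strand. Prkdc starts 466 bases from Mcm4, a subunit of the replicative helicase, and the members of this pair parted. Mcm4 had a log2 fold change of 0.56 after 3 h (adjusted p = 0.000841, edgeR), 0.65 after 6 h, 0.39 after 12 h (adjusted p = 0.0136; −0.24 when scaled to mitochondrial mRNAs) and −0.12 after 24 h (adjusted p = 0.457), while Prkdc was lower at each of these times. Atm starts 307 bases from Npat, a regulator of histone genes, which was lower with it (−0.64 at 12 h, adjusted p = 4.01e-08, and −0.52 at 24 h). Lig4 starts 21 bases from Abhd13, a gene of a predicted hydrolase, which was −1.09 at 12 h (adjusted p = 2.25e-08) where Lig4 was −0.30. Xrcc4 and Tmem167, whose models overlap by 485 bases at their starts, differed in sign at 12 h, with 0.53 for Xrcc4 (−0.09 when scaled to mitochondrial mRNAs) and −1.01 for Tmem167 (adjusted p = 2.24e-12).

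The 4 members that were lower by more than 2-fold at 12 h were also the 4 with the longest exon models, Trp53bp1 with 14164 bases, Prkdc with 13187, Rif1 with 10504 and Atm with 10338. Across the 10 members the Spearman correlation of the log2 fold change at 12 h with exon length was −0.75, and with the genomic span 0.21. All protein-coding genes showed a trend of the same sign. Their median log2 fold change at 12 h was 0.57 for 2901 genes under 2 kb of exon, 0.10 for 7224 genes of 2 to 5 kb, −0.17 for 4918 genes of 5 to 10 kb and −0.32 for 1407 genes of 10 kb or more. In the longest class 52.5% of genes were lower and 22.0% were lower by more than 2-fold. The 4 members therefore lay below the median of genes of their length, and the part of transcript length in their difference was not tested.

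**Figure D4:**
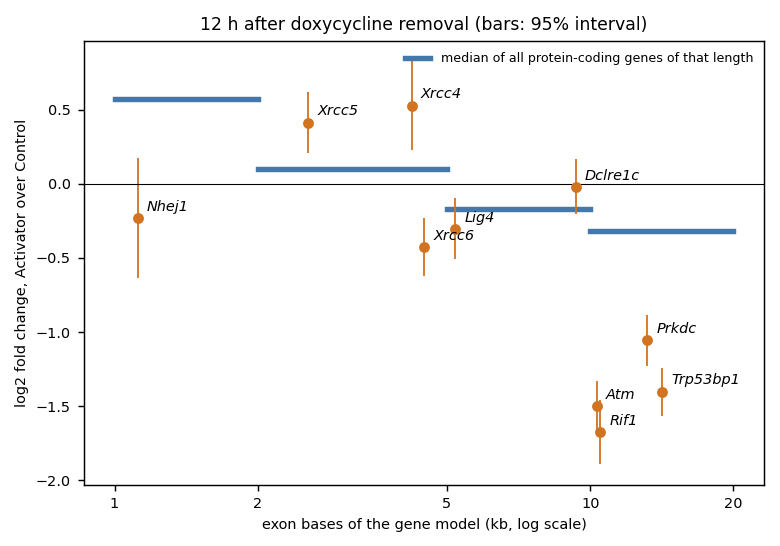
Log2 fold change at 12 h, Activator over Control (y axis), against exon bases of the gene model (x axis, kb, log scale) for the 10 genes with 95% intervals; bars are medians of all protein-coding genes in 4 length classes. The medians descend from 0.57 to −0.32, and Prkdc, Atm, Trp53bp1 and Rif1 lie below the last of them.

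Other genes of these pathways were described by counts from lists of known members, to be read against the shares of all genes that differed, which were 57.3% at the end of induction, 75.2% at 12 h (41.1% higher and 34.1% lower) and 63.9% at 24 h (34.5% higher and 29.4% lower). Of 12 accessory factors of end joining, 4 were higher and 5 lower at 12 h, while 2 were higher and 7 lower at 24 h, with medians of −0.00 and −0.32. The number that differed at 12 h was near the share of all genes and is no result about this list. The median at 12 h was 0.21 with DESeq2 size factors and −0.63 with mitochondrial scaling. Polm, a polymerase that fills gaps at the ends, was lower at 12 h (−1.03 ± 0.23, adjusted p = 0.000194, edgeR). Dntt, which encodes the terminal transferase of lymphocytes, had 0 counts in the Control libraries and 53.1, 83.2 and 75.4 normalised counts in the Activator libraries at 12 h. That is at least 72.8-fold higher against a floor of 3 counts over the Control group, and the bound was at least 60.6-fold at the end of induction and at least 47.9-fold at 24 h.

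Of 15 genes around 53BP1 and shieldin, the complex that acts below 53BP1 and RIF1 to block resection, 4 were higher and 7 lower at 12 h, while 1 was higher and 8 were lower at 24 h, with medians of −0.14 (0.07 with DESeq2 size factors) and −0.40. Shld2, a shieldin subunit, had 144, 226 and 176 normalised counts in the Activator libraries and 621, 666 and 644 in the Control libraries at 12 h. Its groups were well apart, with a log2 fold change of −1.84 ± 0.14 at 12 h (adjusted p = 3.38e-12, edgeR) and −0.71 at 24 h. L3mbtl1, a reader of methylated histone H4 that can compete with 53BP1 for it, showed the opposite. It had 10.7, 16.4 and 17.9 normalised counts in the Control libraries and 2614, 2800 and 2740 in the Activator libraries, a log2 fold change of 7.49 ± 0.40 (adjusted p = 3.45e-14). The value was 6.11 at the end of induction, 6.27 at 24 h and 0.57 (adjusted p = 0.831) before induction.

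Of 22 damage kinases, sensors and mediators, 5 were higher and 12 lower at the end of induction, 4 were higher and 14 lower at 12 h, while 1 was higher and 15 were lower at 24 h, with medians of −0.29, −0.55 and −0.52. Of all genes 31.7% were higher and 25.5% lower at the end of induction, and the total called at 12 and 24 h was near the background of 75.2% and 63.9%. The largest fall at 12 h was that of Chek2, the checkpoint kinase that ATM activates (−2.09 ± 0.16, adjusted p = 1.91e-12, edgeR). Rad9a, a subunit of the 9-1-1 clamp that loads at damaged DNA, rose most (1.01 ± 0.10, adjusted p = 5.29e-10) and was still higher at 24 h (0.97), whereas its value was −0.12 ± 0.10 at the end of induction, which did not pass. Of 10 genes of alternative end joining, the route used when Ku is absent, 1 was higher and 6 were lower at 12 h, while 1 was higher and 8 were lower at 24 h, with medians of −0.49 and −0.86. Exo1, an exonuclease of resection, had −1.64 ± 0.09 at 12 h (adjusted p = 4.61e-15) and Hmces 0.34 ± 0.10 (adjusted p = 0.00389; −0.27 with mitochondrial scaling).

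Markers of proliferation were counted in the same way. Of 20 such genes 4 were higher and 3 lower at the end of induction, 3 were higher and 12 lower at 12 h, while 0 were higher and 16 lower at 24 h, with medians of 0.16, −0.47 and −0.75. Rrm2, a subunit of ribonucleotide reductase, was lower at 12 h (−2.10 ± 0.14, adjusted p = 2.37e-13, edgeR) and Mcm7, of the replicative helicase, was higher on the TMM scale (0.71 ± 0.15, adjusted p = 0.000141). The Activator libraries of Mcm7 spread from 12464 to 21784 normalised counts at 12 h, against 10108 to 10807 in the Control libraries. At the end of induction 13 of the 20 did not pass, and their median was −0.21 with mitochondrial scaling. The part of proliferation in the differences of the 10 genes was not tested.

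The levels of the 10 members were each standardised over the 12 groups and then averaged. Among the genes outside the lists that followed this mean most closely, of 13531 compared, were Tinf2 (Pearson r = 0.987), Ddx11 (0.986), Ing1 (0.986) and Timm21 (0.985). Tinf2 encodes a shelterin subunit and Ddx11 a helicase. At 12 h their log2 fold changes were −0.61, −1.20, −0.92 and −1.40, Activator over Control. The groups share the course of induction, so the likeness is given as a description. The members themselves did not share 1 course. Over the same groups the Pearson r with Trp53bp1 was 0.99 for Rif1, −0.83 for Xrcc4 and −0.69 for Xrcc5.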

How the data were processed

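Total RNA was sequenced after ribosomal depletion (TruSeq Stranded Total RNA Gold) in 36 libraries. The authors used cutadapt for trimming, STAR for alignment to GRCm38 and TEtranscripts for counting over genes and families of repeats, and the deposited values are raw counts. The annotation release, strand setting and sharing of multi-mapped reads are not given in the sources used here. The table holds 54842 genes, 1561 repeat families and 1 unnamed entry with at most 0.00452% of counts, which was left out. Of the genes 54495 match GENCODE M21, from which gene models were taken.

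Genes were tested with edgeR 4.0.16 in R 4.3.3 (TMM, filterByExpr, estimateDisp, glmQLFit with robust fitting, glmQLFTest) over 12 groups with the replicate number as block, as in the study's design. P-values were adjusted by Benjamini-Hochberg over 28536 genes, standard errors were derived from the fold change and the F statistic, 95% intervals use the normal approximation, and normalised counts are scaled to the mean effective library size. The additive fit over all 6 time points and DESeq2 1.42.0 were alternatives, beside other scalings, no filter, no block, the limits of the study and the omission of libraries. The steps were tested on simulated counts. The study's methods describe the 3 libraries of a group as biological replicates. Identical counts were found in 0 pairs of libraries.

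The members and lists were chosen with earlier results of these data known. Beside the members, the text names the genes of each list with the largest rise and fall at 12 h, genes that start within 1000 bases of a member on the other strand, and the 5 most similar genes with a mean count of at least 100, of which 1 is not reported here. Members of the lists named in other places were chosen after their values were seen. Of the listed genes Shld3 had no match. Libraries of the MSR-dCas9-Repressor line were not analysed here.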

Additional observations from a re-analysis of the deposited data

Results flagged for a closer look

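The results below are differences between the lines that changed with time, tested as an interaction in edgeR (Benjamini-Hochberg over all genes, log2 scale, Activator over Control). At the end of induction less before induction, they were −0.52 for Trp53bp1 (adjusted p = 0.00111) and −0.55 for Rif1 (0.00737). For both genes the library values of the lines did not overlap at the end of induction. For Rif1 they did not overlap before induction either.

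At 12 h less before induction, the values were −0.34 for Xrcc6 (adjusted p = 0.0444), −1.07 for Prkdc (5.96e-08), −1.22 for Trp53bp1 (2.3e-09), −1.37 for Rif1 (3.94e-08) and −1.31 for Atm (1.39e-09). At 24 h less before induction, they were −0.55 for Xrcc6 (0.00389), −1.08 for Prkdc (2.96e-07), −0.85 for Trp53bp1 (3.31e-06), −0.82 for Rif1 (0.000168) and −0.93 for Atm (1.36e-06).

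At 24 h less 12 h, the values were −0.64 for Xrcc5 (adjusted p = 0.00416), 0.38 for Trp53bp1 (0.0244), 0.55 for Rif1 (0.0155) and 0.38 for Atm (0.0294). The last 3, and Xrcc6 at 12 h above, each lost their call when any of several single libraries was left out. The last 3 did not pass without Activator replicate 2 at 24 h, which lay above the other Activator libraries of that time for these genes.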

How the results depend on the processing

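Of the 10 genes, Prkdc, Atm, Trp53bp1 and Rif1 kept their direction and their call at 12 and 24 h under each scaling, without the filter, without the replicate block, with DESeq2 and without any single library. With mitochondrial scaling 7 differences turned: Xrcc5 at the end of induction (−0.11) and 3 h (−0.12), 6 h (−0.28) and 12 h (−0.22), and Xrcc4 at 3 h (−0.11), 6 h (−0.36) and 12 h (−0.091). Xrcc6 at 3 h ranged from −0.15 without replicate 3 of both lines to 0.19 without replicate 2. The cause was not tested. The replicate number, used as block because the study's formula holds it, does not pair the samples by the labels: same-numbered libraries of the lines correlated from −0.02 to 0.44, over 0.1 in 15 of 18 pairs, and 17 of 18 Activator libraries were closest to their own number. With no replicate block the members called were 0, 5, 8, 8, 8 and 5 from before induction to 24 h, 9 in the additive fit, 2, 4 and 5 for the differences less before induction, 3 for 24 h less 12 h, 4 for 12 h less the end of induction, 4 and 6 within the Activator line and 0 and 0 within the Control line. With the limits of the study, which ask for a 2-fold change, they were 0 at the end of induction, 1, 3 and 4 after 3, 6 and 12 h, 0 and 1 for the differences at the end of induction and 24 h less before, 0 for 24 h less 12 h, 1 for 12 h less the end of induction, 0 and 0 within the Activator line and 1 in the additive fit (9 by adjusted p alone). With mitochondrial scaling 8 members were called in the induced Activator line. When a replicate number or a library was left out, counts ranged from 0 to 0 before induction, 2 to 7 at the end of induction, 6 to 9 both after 3 h and after 6 h, 5 to 8 after 12 h, 5 to 6 after 24 h and 7 to 9 in the additive fit. They ranged from 1 to 5 and 5 to 6 within the Activator line, 0 to 0 within the Control line, 0 to 4, 4 to 6 and 4 to 6 for the differences less before induction, 0 to 4 for 24 h less 12 h and 3 to 4 for 12 h less the end of induction. Single libraries were not left out of the additive fit.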
